A study of Mus musculus with 16 samples.

Results

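Lysosomal enzymes and membrane proteins were examined here as a set of 36 genes, chosen by symbol among the rows of a raw gene count table of mouse tibialis anterior, the muscle along the shin that lifts the foot. All 36 were found in the table of 29730 genes, and all 36 passed the filter on low counts that left 14960 genes for testing. By role the set held 7 proteases, 10 glycosidases and sulfatases, 6 genes of lipid handling, 2 cofactor proteins, 5 membrane proteins and 6 genes of the proton pump. RNA was sequenced from 16 male mice aged 7 weeks, labelled as strain C57BL/6N, in 4 groups of 4. WT_PBS were wild-type mice given phosphate-buffered saline, WT_ASO wild-type mice given ASO1, KO_PBS Bin1mck-/- mice given saline and KO_ASO Bin1mck-/- mice given ASO1. ASO1 is an antisense oligonucleotide, that is, a short stretch of modified nucleic acid that binds a matching transcript so that less of it remains, and its target is Dnm2, the gene of the membrane-cutting enzyme dynamin 2. Bin1 encodes amphiphysin 2, a protein that bends membranes, and the series presents its loss in muscle as a model of recessive centronuclear myopathy. The dose, the schedule, the deleted part of Bin1 and the meaning of mck in the name of the line are left unstated in the labels.

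Lysosomes are acid compartments in which proteins, glycans, lipids and glycogen taken up by the cell or delivered by autophagy are broken down. Their hydrolases work at low pH, which a proton-pumping ATPase maintains, and their membrane is lined by heavily glycosylated proteins that withstand digestion. In skeletal muscle they are known for clearing glycogen and spent organelles, and the loss of single members gives storage diseases, several with muscle weakness. Macrophages are rich in lysosomes, so muscle tissue as a whole holds lysosomal transcripts from fibres and from other cells.

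Many lysosomal genes carry, close to their start, a palindromic sequence named the CLEAR element, which is bound by TFEB, TFE3 and MITF, the transcription factors that raise lysosome production. Promoter windows from RefSeq (build GRCm38.p6, 250 bases before to 50 after a gene start) were held for 30 of the 36 members, and none was held for Ctsb, Ctsh, Galns, Npc1, Asah1 and Atp6v1h. The letters CACGTG, the core of that element, were found in 10 of the 30 (33.3%), against 8.093% of the 27025 genes with a window. The longer TCACGTGA, which contains the first motif, was found in 6 of the 30, against 1.125% of those genes. Both motifs read the same on either strand. The stretches below come from 7 of the carriers, picked after their values were seen: Mcoln1, Ctsl, Glb1 and Atp6v1a, which are all the carriers called in KO_PBS vs WT_PBS, and Lamp1, Gla and Ctsd, which were not called. They are shown so that the letters of called and uncalled members can be compared, with the match in capitals and written 5′ to 3′ on the strand of the gene.
Lamp1 (chr8:13159080-13159160, plus strand): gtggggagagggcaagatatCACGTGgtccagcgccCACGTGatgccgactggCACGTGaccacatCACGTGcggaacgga
Mcoln1 (chr8:3500428-3500499, plus strand): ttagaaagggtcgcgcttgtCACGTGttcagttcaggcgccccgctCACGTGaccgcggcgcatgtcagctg
Gla (chrX:134601174-134601252, minus strand): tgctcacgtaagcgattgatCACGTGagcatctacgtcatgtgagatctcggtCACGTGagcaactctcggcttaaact
Ctsd (chr7:142387900-142387945, minus strand): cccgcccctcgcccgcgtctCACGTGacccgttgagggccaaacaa
Ctsl (chr13:64370731-64370770, minus strand): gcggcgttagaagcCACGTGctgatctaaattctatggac
Glb1 (chr9:114401010-114401055, plus strand): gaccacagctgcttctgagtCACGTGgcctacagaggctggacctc
Atp6v1a (chr16:44139365-44139410, minus strand): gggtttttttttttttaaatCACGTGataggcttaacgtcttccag
Lamp1 held 4 copies of the core within 81 bases and Mcoln1 and Gla held 2 each in the stretch shown. For Ctsd 1 of its 2 matches is shown. Ctsa, Gaa and Atp6v0d1, none of them called, were the remaining carriers of the core, and the windows of Ctsa and Atp6v0d1 also hold the longer motif. A match is a run of letters and not a measured binding site.

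The targeted genes were read first. Bin1 measured 475, 554, 487 and 463 CPM, counts per 1e6 on library sizes scaled with the TMM method of edgeR (trimmed mean of M values), in WT_PBS replicates 1 to 4, and 479, 533, 619.8 and 524 CPM in WT_ASO. It measured 47.7, 40.8, 43.7 and 47.4 CPM in KO_PBS and 35.4, 31.9, 42.9 and 31.7 CPM in KO_ASO, with no overlap between knockout and wild-type samples (KO_PBS vs WT_PBS log2FC -3.46, SE 0.12, adjusted P = 1.91e-11). Dnm2 measured 56.1 ± 5.51 CPM in WT_PBS and 25.6 ± 2.72 CPM in WT_ASO (SD, n = 4 each). It measured 62.8 ± 3.63 CPM in KO_PBS and 24.8 ± 4.48 CPM in KO_ASO (SD, n = 4 each), and the samples given the oligonucleotide did not overlap those given saline in either genotype. Total counts ran from 27591900 to 40862854 per sample. Skeletal muscle fibre markers summed to 140787 to 220455 CPM per sample, far above any other marker list, as in muscle. KO_PBS replicate 4 stood apart among the members: it was the highest KO_PBS sample for 29 of the 36 and the lowest for 0.

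The members spanned a wide range of levels. Per length of transcript, in CPM per kilobase of exon (RPKM), Psap (precursor of the saposins, small activators of lipid hydrolases) was highest in WT_PBS at 325 RPKM. It was followed by Lamp1 (a major protein of the lysosomal membrane) at 167, Ctsd (the aspartic protease cathepsin D) at 162 and Gaa (acid alpha-glucosidase, which degrades lysosomal glycogen) at 67.4 RPKM. The lowest were Glb1 at 0.884, Arsb at 0.794 and Galns at 0.601 RPKM. Lamp1 and Ctsd were within 1 SD of each other (SD of 4.99 and 10.3 RPKM, n = 4 each), while Psap was far above both.

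In saline-treated mice the loss of Bin1 went with a change in 19 of the 36 members (52.8%) at an adjusted P value under 0.05, against 12.6% of all genes tested. The members were chosen with earlier results of these data known, so these shares describe the set and are no independent test. Higher in KO_PBS than in WT_PBS were 14 members, against a background of 7.43% of genes called higher, and lower were 5, against 5.12% called lower. Hexa, Galns, Gusb and Atp6ap2 led the higher group and Psap, the most abundant member, the lower group. Changes were modest: the median log2FC of the 36 was 0.18, against -0.01 for all genes tested, the range was -0.36 to 1.29, and 1 member (Galns) reached 2-fold. The 2 groups of samples did not overlap for 18 members, 15 higher and 3 lower in KO_PBS, against 20.4% of all genes whose groups did not overlap. Summed over the 36 members, the level was 3710 ± 81.8 CPM in WT_PBS and 3644 ± 401 CPM in KO_PBS (SD, n = 4 each), with the abundant Psap lower and scarcer members higher. On library totals without TMM scaling, under which the median of all genes moved from -0.01 to 0.14, 17 members were called higher and 0 lower. The 5 lower calls were thus made with TMM, and with the size factors of DESeq2 (RLE), and not on library totals. TMM alone did not secure them. Without a filter it gave 10 higher and 1 lower, and in the compared groups alone 14 and 0. DESeq2 called 19, 14 higher and 5 lower, against 16.9% of all genes to which it gave an adjusted P, and 21 had an unadjusted P under 0.05 with edgeR, against 27.3%.

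With the oligonucleotide in knockout mice, 6 of the 36 members were lower than in KO_PBS, against 3.64% of all genes called and 2.83% called lower. They were Hexa, Gusb, Atp6ap2, Ctsl, Ctsz and Galns, and all 6 were among the 14 that were higher in KO_PBS. Called higher with edgeR were 0 members, against 0.802% of all genes. At an unadjusted P under 0.05, 1 was higher and 16 lower, against 17.7% of all genes in either direction, and DESeq2 called 0 higher and 9 lower, against 7.07%. The median log2FC was -0.16, against 0.01 for all genes, and the KO_ASO and KO_PBS samples did not overlap for 6 members (Ctsb, Ctsl, Hexa, Gusb, Arsb and Galns), against 10.4% of all genes. The comparison shares the KO_PBS samples with the first, so a high KO_PBS value enters both.

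**Figure D1:**
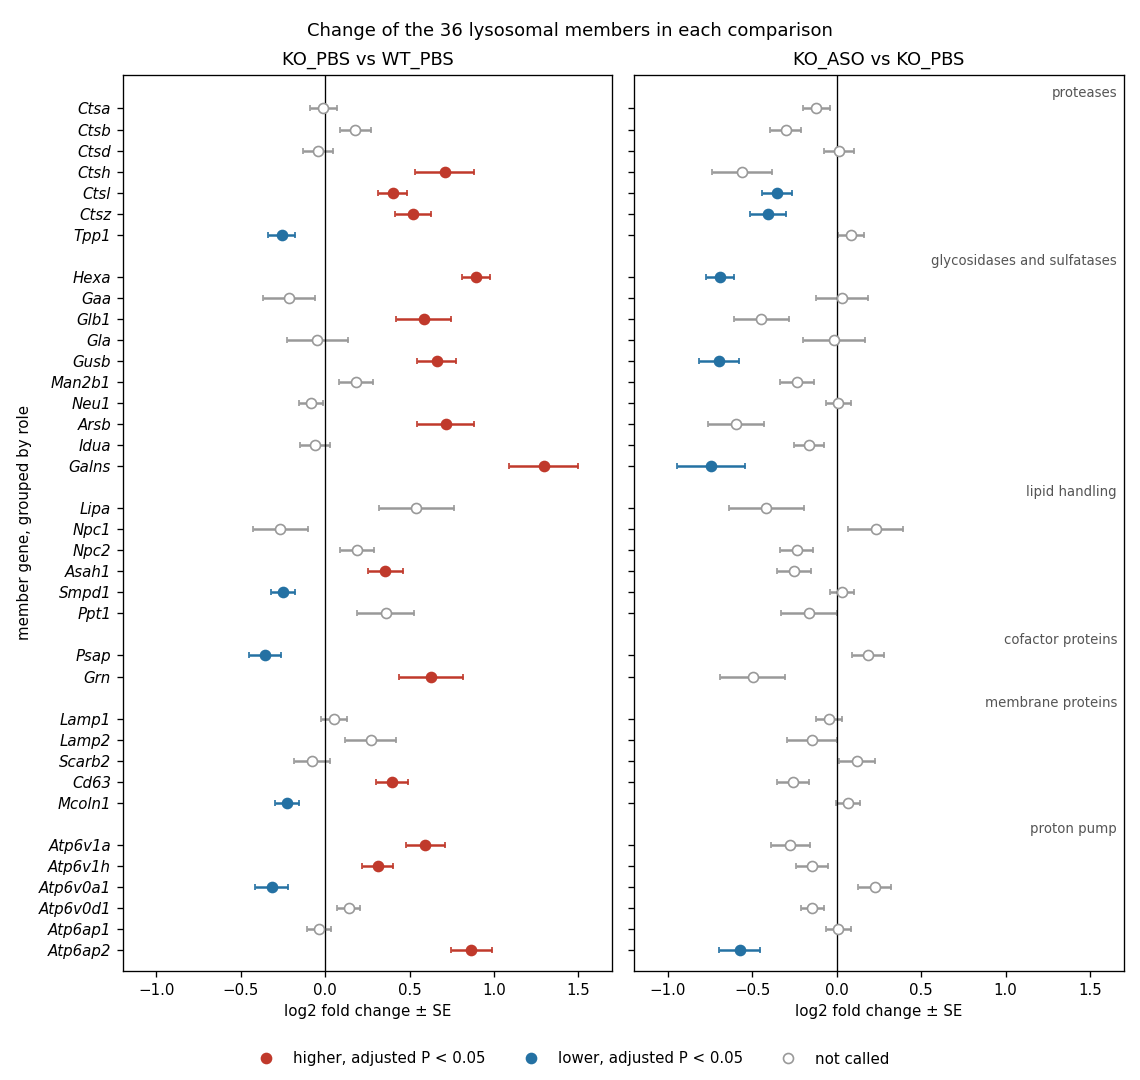
Log2 fold change (x axis) with its SE (bars) of each of the 36 members (y axis, grouped by role) for KO_PBS vs WT_PBS on the left and KO_ASO vs KO_PBS on the right, with 4 samples a group. Filled points passed an adjusted P value of 0.05: 14 higher and 5 lower on the left, and 6 lower on the right.

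Among the proteases, 3 of 7 rose in KO_PBS, 1 fell and 3 were not called. Ctsl, cathepsin L, a cysteine endopeptidase also known to rise in wasting muscle, measured 143, 126, 132 and 128 CPM in WT_PBS and 182, 154, 148 and 140.3 CPM in WT_ASO. It measured 178, 158, 168 and 193 CPM in KO_PBS and 142, 139, 132 and 132 CPM in KO_ASO. All KO_PBS samples lay above all WT_PBS and all KO_ASO samples, while WT_ASO replicate 1 reached into the KO_PBS range. Ctsl was higher in KO_PBS (log2FC 0.40, SE 0.09, adjusted P = 0.00697) and lower with the oligonucleotide (log2FC -0.36, SE 0.09, adjusted P = 0.0345). Ctsz, the carboxypeptidase cathepsin Z, measured 26.7, 27.5, 27.7 and 24.1 CPM in WT_PBS, 24.7, 25.4, 30.2 and 29.7 CPM in WT_ASO, 41.7, 32.1, 34.2 and 44.0 CPM in KO_PBS and 28.4, 25.1, 28.8 and 32.2 CPM in KO_ASO. KO_PBS lay above both wild-type groups without overlap, and the top KO_ASO sample just passed the lowest KO_PBS sample. Its changes were 0.52 in log2FC for the genotype (SE 0.11, adjusted P = 0.00499) and -0.41 for the oligonucleotide (SE 0.11, adjusted P = 0.0472). Ctsz overlaps Nelfcd on the other strand (mean of 971.5 counts against 1050 for Ctsz), and Nelfcd itself had a log2FC of 0.09 for the genotype (SE 0.07, adjusted P = 0.489).

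Ctsh, cathepsin H, an aminopeptidase, was scarce at 7.37, 7.45, 7.00 and 6.54 CPM in WT_PBS and 5.60, 5.01, 7.56 and 8.81 CPM in WT_ASO. It stood at 11.8, 9.29, 11.7 and 13.5 CPM in KO_PBS and 6.33, 6.77, 8.38 and 9.93 CPM in KO_ASO. KO_PBS lay above both wild-type groups, and KO_ASO replicate 4 overlapped KO_PBS. The genotype change passed the test (log2FC 0.71, SE 0.18, adjusted P = 0.015) and the oligonucleotide change did not (log2FC -0.56, SE 0.18, adjusted P = 0.088). For the latter, the adjusted P ran from 0.0349 (DESeq2) to 0.252 over the alternative fits. Tpp1, tripeptidyl peptidase 1, fell from 78.3 ± 2.5 CPM in WT_PBS to 65.5 ± 7.12 CPM in KO_PBS (SD, n = 4 each; log2FC -0.26, SE 0.08, adjusted P = 0.0418), with KO_PBS replicate 4 inside the WT_PBS range. Of the proteases that were not called, Ctsb had a log2FC of 0.18 (SE 0.09), Ctsd of -0.05 (SE 0.09) and Ctsa, the protective protein of beta-galactosidase and neuraminidase, of -0.01 (SE 0.08). Ctsd and Ctsa carry the motif shown above, as does Ctsl.

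The glycosidases and sulfatases, which take glycans apart, held 5 of 10 members that rose in KO_PBS and 0 that fell with edgeR, with DESeq2 or at an unadjusted P under 0.05. Hexa, the alpha subunit of beta-hexosaminidase, which trims gangliosides, measured 37.5, 39.1, 42.8 and 36.8 CPM in WT_PBS and 40.3, 42.8, 45.5 and 45.2 CPM in WT_ASO. It measured 75.7, 71.4, 66.4 and 76.9 CPM in KO_PBS and 45.9, 50.6, 42.8 and 40.0 CPM in KO_ASO. Each KO_PBS sample was above each sample of the other 3 groups, and the other 3 groups overlapped each other. Hexa had the smallest P value of the 36 both for the genotype (log2FC 0.89, SE 0.08, adjusted P = 7.49e-06) and for the oligonucleotide in knockouts (log2FC -0.69, SE 0.08, adjusted P = 0.000295). Hexa overlaps Tmem202 on the other strand, which had a mean of 18.1 counts against 1753 for Hexa and moved the same way (log2FC 2.86, SE 0.37, adjusted P = 0.000112 for the genotype and -2.06, SE 0.34, adjusted P = 0.00369 for the oligonucleotide). Whether counting used the strand is not given in the sources, so reads of such pairs may be shared.

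Gusb, beta-glucuronidase, measured 14.9, 12.6, 14.6 and 14.9 CPM in WT_PBS and 16.1, 10.7, 15.3 and 15.9 CPM in WT_ASO. It measured 25.0, 19.1, 22.2 and 23.7 CPM in KO_PBS and 13.6, 13.4, 13.6 and 14.9 CPM in KO_ASO. KO_PBS lay apart above the other 3 groups, and replicate 2 was the lowest of its group in all 4 groups. The genotype raised it (log2FC 0.66, SE 0.12, adjusted P = 0.00181) and the oligonucleotide lowered it (log2FC -0.70, SE 0.12, adjusted P = 0.00401). Galns, a sulfatase of keratan and chondroitin sulfate and the scarcest member, measured 2.05, 1.23, 1.74 and 1.35 CPM in WT_PBS, 1.67, 1.39, 1.40 and 2.11 CPM in WT_ASO, 4.63, 3.63, 3.44 and 3.99 CPM in KO_PBS and 2.63, 1.92, 1.87 and 2.93 CPM in KO_ASO. KO_PBS again lay above the other 3 groups without overlap. Galns had the largest log2FC of the 36 for the genotype (log2FC 1.29, SE 0.20, adjusted P = 0.0007) and for the oligonucleotide in knockouts, where its adjusted P was at the edge (log2FC -0.75, SE 0.20, adjusted P = 0.0499).

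Arsb, arylsulfatase B, which desulfates dermatan sulfate, measured 4.65, 4.47, 4.93 and 5.11 CPM in WT_PBS and 4.06, 3.82, 4.34 and 5.36 CPM in WT_ASO. It measured 9.57, 6.40, 7.92 and 7.54 CPM in KO_PBS and 3.64, 4.92, 6.23 and 6.06 CPM in KO_ASO, and KO_PBS did not overlap any other group. The genotype change was called (log2FC 0.71, SE 0.17, adjusted P = 0.0104), and the drop with the oligonucleotide missed the threshold (log2FC -0.60, SE 0.17, adjusted P = 0.0578). The adjusted P of that drop ran from 0.0132 (DESeq2) to 0.202 over the alternative fits. Glb1, lysosomal beta-galactosidase, measured 3.10, 2.16, 2.57 and 2.81 CPM in WT_PBS, 3.24, 2.34, 3.43 and 3.56 CPM in WT_ASO, 3.89, 3.43, 4.10 and 4.56 CPM in KO_PBS and 2.93, 2.49, 2.77 and 3.52 CPM in KO_ASO. All KO_PBS samples were above all WT_PBS samples, and both other groups overlapped KO_PBS (genotype log2FC 0.58, SE 0.16, adjusted P = 0.0278). The 5 members that were not called were Gaa (log2FC -0.22, SE 0.15), Gla (alpha-galactosidase A, -0.05, SE 0.18), Man2b1 (alpha-mannosidase, 0.18, SE 0.10), Neu1 (neuraminidase, -0.09, SE 0.07) and Idua (alpha-iduronidase, -0.06, SE 0.09). Gaa, the most abundant of this role, had samples from 218 to 334 CPM in KO_PBS and from 279 to 375 CPM in WT_PBS, which overlapped broadly.

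Of the 6 genes of lipid handling, 1 rose in KO_PBS, 1 fell and 4 were not called. Asah1, acid ceramidase, measured 20.3, 19.7, 17.0 and 18.8 CPM in WT_PBS, 18.1, 16.8, 15.8 and 17.9 CPM in WT_ASO, 27.8, 20.7, 22.1 and 26.3 CPM in KO_PBS and 20.5, 20.5, 22.5 and 17.7 CPM in KO_ASO. KO_PBS lay above both wild-type groups, with replicate 2 close to them, and overlapped KO_ASO (log2FC 0.36, SE 0.10, adjusted P = 0.0303). Smpd1, acid sphingomyelinase, which yields the ceramide that Asah1 splits, measured 93.9, 89.4, 106 and 103 CPM in WT_PBS and 93.9, 93.3, 103 and 92.5 CPM in WT_ASO. It measured 79.1, 80.6, 89.6 and 80.5 CPM in KO_PBS and 84.2, 83.6, 84.8 and 84.1 CPM in KO_ASO. The fall in KO_PBS was called (log2FC -0.25, SE 0.07, adjusted P = 0.0278) although KO_PBS replicate 3 just passed the lowest WT_PBS sample, and the 4 KO_ASO samples were almost equal to each other. Lipa, the acid lipase, had a log2FC of 0.54 for the genotype (SE 0.22, adjusted P = 0.127) with samples that did not overlap, at 11.1, 10.4, 10.7 and 9.05 CPM in WT_PBS and 13.0, 11.3, 12.6 and 23.2 CPM in KO_PBS, where replicate 4 stood far above the other 3. The cholesterol exporters Npc1 and Npc2 had a log2FC of -0.27 (SE 0.16) and 0.19 (SE 0.10), and Ppt1, a thioesterase that removes palmitate from proteins, of 0.36 (SE 0.17).

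The cofactor proteins moved in opposite directions. Psap measured 869.6, 900.3, 914 and 880.4 CPM in WT_PBS and 939.7, 918, 1066 and 929 CPM in WT_ASO. It measured 566, 690.3, 724 and 801 CPM in KO_PBS and 810.3, 783, 804 and 759.8 CPM in KO_ASO. All samples of both knockout groups lay below all samples of both wild-type groups, and KO_PBS replicate 4 overlapped KO_ASO. The fall in KO_PBS was called (log2FC -0.36, SE 0.09, adjusted P = 0.02), and the change with the oligonucleotide was not (log2FC 0.18, SE 0.09, adjusted P = 0.325). Grn, progranulin, which binds prosaposin and regulates lysosomal enzymes, rose from 30.3 ± 1.40 CPM in WT_PBS to 46.7 ± 13.7 CPM in KO_PBS (SD, n = 4 each; log2FC 0.63, SE 0.19, adjusted P = 0.0424). Its KO_PBS samples were 44.9, 34.7, 40.8 and 66.3 CPM, with replicate 4 well above the others.

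Among the 5 membrane proteins, Cd63 rose in KO_PBS, Mcoln1 fell and the 3 structural or sorting proteins were not called. Cd63, a tetraspanin of late endosomes and lysosomes, measured 30.1, 32.6, 33.8 and 34.5 CPM in WT_PBS and 34.1, 37.2, 39.3 and 40.5 CPM in WT_ASO. It measured 43.8, 42.9, 36.3 and 49.3 CPM in KO_PBS and 32.2, 40.1, 33.6 and 37.8 CPM in KO_ASO, so that KO_PBS was clear of WT_PBS and overlapped both groups given the oligonucleotide (log2FC 0.40, SE 0.10, adjusted P = 0.0133). Mcoln1, the calcium channel of the lysosomal membrane also called TRPML1, fell from 28.6 ± 1.74 CPM to 24.4 ± 1.52 CPM (SD, n = 4 each; log2FC -0.23, SE 0.07, adjusted P = 0.0423). Lamp1, with 4 copies of the core motif in the stretch shown, had a log2FC of 0.05 (SE 0.08), or -0.10 to 0.20 at 2 SE on either side. Lamp2, whose loss causes a myopathy with autophagic vacuoles, had 0.27 (SE 0.15, -0.03 to 0.57) and Scarb2, the receptor that brings glucocerebrosidase to lysosomes, -0.08 (SE 0.11, -0.29 to 0.13).

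The proton pump is built from a cytoplasmic part that splits ATP and a membrane part that carries protons, and 3 of its 6 genes rose in KO_PBS, 1 fell and 2 were not called. Atp6ap2, an accessory protein of the pump also known as the prorenin receptor, measured 15.8, 17.2, 13.7 and 16.5 CPM in WT_PBS and 15.6, 16.5, 13.4 and 15.7 CPM in WT_ASO. It measured 31.2, 27.5, 22.8 and 33.6 CPM in KO_PBS and 17.5, 22.9, 17.5 and 19.3 CPM in KO_ASO. Both knockout groups lay above both wild-type groups, and KO_ASO replicate 2 just reached the lowest KO_PBS sample. The rise (log2FC 0.87, SE 0.12, adjusted P = 0.000273) and the fall with the oligonucleotide (log2FC -0.57, SE 0.12, adjusted P = 0.0161) were both called. Atp6v1a, the catalytic subunit, measured 22.2, 22.3, 21.9 and 23.8 CPM in WT_PBS, 23.8, 23.9, 20.4 and 24.0 CPM in WT_ASO, 33.7, 31.6, 32.6 and 38.2 CPM in KO_PBS and 24.9, 37.0, 26.2 and 24.4 CPM in KO_ASO. Both knockout groups again lay above both wild-type groups, KO_ASO only narrowly apart from replicate 2, which reached the KO_PBS range (genotype log2FC 0.59, SE 0.11, adjusted P = 0.00316; oligonucleotide log2FC -0.27, SE 0.11, adjusted P = 0.208). The regulatory subunit Atp6v1h rose from 15.6 ± 0.952 CPM to 19.3 ± 1.20 CPM (SD, n = 4 each; log2FC 0.31, SE 0.09, adjusted P = 0.0386), while Atp6v0a1, a subunit of the membrane part, fell from 94.9 ± 6.42 CPM to 76.1 ± 10.7 CPM (SD, n = 4 each; log2FC -0.32, SE 0.10, adjusted P = 0.0453). Atp6v0d1, another subunit of that part, and the accessory protein Atp6ap1 had a log2FC of 0.14 (SE 0.07) and -0.04 (SE 0.07).

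**Figure D2:**
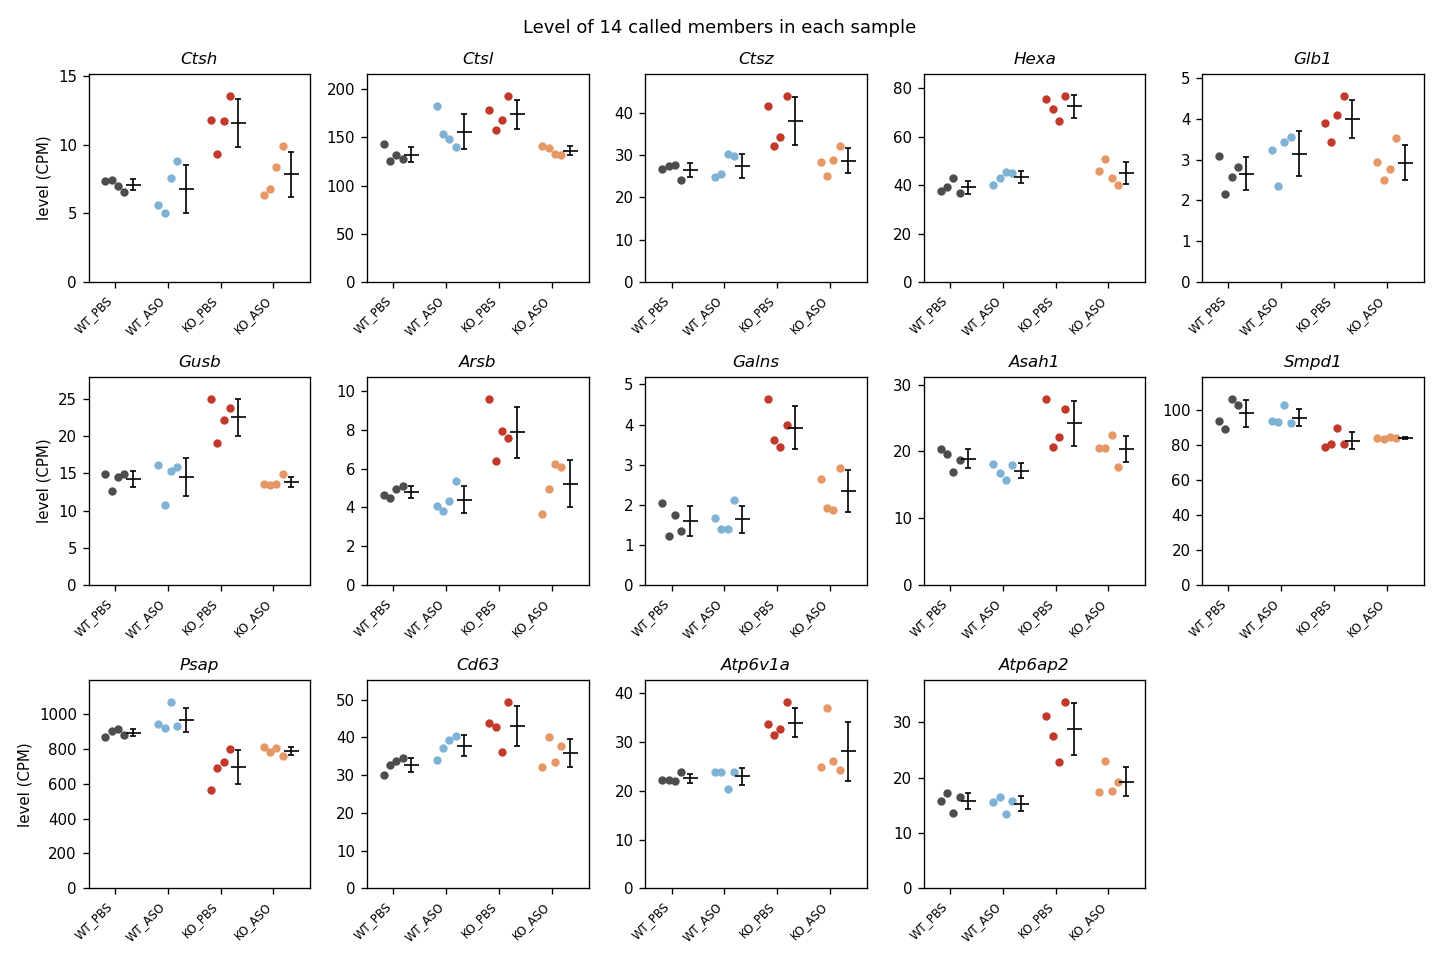
Level in CPM (y axes, from 0) of 14 called members in each of the 16 samples, by group (x axes), with replicates 1 to 4 from left to right in a group and the mean ± SD (n = 4) in black. For Hexa, Gusb, Galns and Arsb all KO_PBS samples lie above all other samples, and for Psap both knockout groups lie below both wild-type groups.

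Knockouts given the oligonucleotide were then set against saline-treated wild types. With edgeR 0 of the 36 members were called between KO_ASO and WT_PBS, against 0.0401% of all genes, and 8 had an unadjusted P under 0.05 (4 higher and 4 lower), against 8.22%. DESeq2 called 0, against 0.636%. A missed threshold does not show equal levels, so intervals of 2 SE on either side of the log2FC are given: 0.04 to 0.36 for Hexa, -0.27 to 0.20 for Gusb, -0.13 to 0.22 for Ctsl, -0.10 to 0.33 for Ctsz, 0.05 to 0.54 for Atp6ap2 and 0.13 to 0.97 for Galns. For Galns the estimate was 0.55 and for Atp6v1a 0.32 (0.09 to 0.55). The KO_ASO and WT_PBS samples did not overlap for 5 of the 36 members, against 5.39% of all genes. KO_ASO was the higher group for Atp6v1a and Atp6ap2 and the lower for Ctsb, Smpd1 and Psap, with Ctsb at 308 to 335 CPM in KO_ASO and 336 to 357 CPM in WT_PBS. Of the 5 members that were lower in KO_PBS, Psap had a log2FC of -0.17 in KO_ASO against WT_PBS (-0.36 to 0.01), Smpd1 of -0.22 (-0.36 to -0.08), Tpp1 of -0.17 (-0.33 to -0.02), Mcoln1 of -0.16 (-0.30 to -0.02) and Atp6v0a1 of -0.09 (-0.29 to 0.11). Their changes from KO_PBS to KO_ASO lay between 0.03 (Smpd1) and 0.22 (Atp6v0a1) and were not called. The smallest adjusted P of the 36 was 0.412, for Smpd1.

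Against wild types that had also been given the oligonucleotide, KO_ASO had 0 members called with edgeR, where 0.0735% of all genes were called. At an unadjusted P under 0.05 there were 13, 4 higher and 9 lower, against 15.1% of all genes, and DESeq2 called 3 lower (Tpp1, Psap and Mcoln1), against 3.2%. The smallest adjusted P with edgeR was 0.109, for Mcoln1 (log2FC -0.28, SE 0.07).

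In wild-type mice 0 of the 36 members were called for the oligonucleotide with edgeR, and 0 with DESeq2, against 0.221% of all genes with DESeq2. At an unadjusted P under 0.05 there were 3, all higher, against 6.45% of all genes. In this comparison 1 gene of all those tested was called (0.00668%), which was Dnm2 itself. The member with the smallest adjusted P was Ctsl (log2FC 0.24, SE 0.09, adjusted P = 0.736). The edgeR values here come from the main fit, which does not pair same-numbered samples. With a replicate block 0 members were called, and 2 of all genes. The summed level of the 36 was 4039 ± 158 CPM in WT_ASO against 3710 ± 81.8 CPM in WT_PBS (SD, n = 4 each), with samples from 3924 to 4272 CPM and from 3590 to 3771 CPM.

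Whether the oligonucleotide effect differed between genotypes was tested as an interaction, KO_ASO minus KO_PBS less WT_ASO minus WT_PBS. It was called for 2 of the 36 members, against 0.575% of all genes. They were Hexa (log2FC -0.85, SE 0.12, adjusted P = 0.00355) and Ctsl (log2FC -0.60, SE 0.12, adjusted P = 0.0405), whose levels went down with the oligonucleotide in knockouts while their estimates in wild types were 0.15 and 0.24. The estimate was below 0 for 31 of the 36 members, the median was -0.22 against 0.00 for all genes, and DESeq2 called 4, against 2.68% of all genes. At an unadjusted P under 0.05 there were 12, against 12.7%. The interaction shares the KO_PBS and WT_PBS samples with the genotype comparison, with opposite sign, so a high KO_PBS value lowers it. Gusb, which fell in knockouts, came next with an interaction of -0.72 (SE 0.17, adjusted P = 0.0629), and passed the threshold in the fit with a replicate block (adjusted P = 0.0171).

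Some calls depended on single samples. For the genotype, Ctsl, Ctsz, Hexa, Gusb, Arsb, Galns, Cd63, Atp6v1a and Atp6ap2 were called in each of the 22 alternative fits, 9 of the 19. The count was 10 without KO_PBS replicate 1 (10 higher, 0 lower), 10 without WT_PBS replicate 4, 12 without WT_PBS replicate 2 and 12 without WT_PBS replicate 3. Without KO_PBS replicate 4, the sample that was highest for 29 members, it was 14 (10 higher, 4 lower). Calls over all genes, 1878 as reported, were fewer in the same fits, at 997, 1080, 1256, 1456 and 1508. The call of Ctsh ended without WT_PBS replicate 4 (adjusted P = 0.0515) and that of Psap without KO_PBS replicate 1 (0.0678). Those of Glb1 (0.0553 to 0.0857) and Atp6v1h (0.0790 to 0.104) each ended without any 1 of 6 samples: KO_PBS replicates 1, 3 and 4 and WT_PBS replicates 2, 3 and 4 for Glb1, and KO_PBS and WT_PBS replicates 1, 2 and 4 for Atp6v1h. Asah1 was lost without KO_PBS replicate 1 or 4 or WT_PBS replicate 2, 3 or 4 (0.0547 to 0.109), and Smpd1 without KO_PBS replicate 1, 2 or 4 or WT_PBS replicate 3 or 4 (0.0796 to 0.112). Tpp1 was lost without any WT_PBS sample or KO_PBS replicate 1, 2 or 3 (0.0514 to 0.143). Grn was lost without any WT_PBS sample, KO_PBS replicate 1 or 4, KO_ASO replicate 3 or WT_ASO replicate 1 (0.0501 to 0.128). Mcoln1 was lost without KO_PBS replicate 1, 2 or 3, WT_PBS replicate 2, 3 or 4 or KO_ASO replicate 2 or 3 (0.0520 to 0.145), and Atp6v0a1 without KO_PBS replicate 1 or 2, WT_PBS replicate 2, 3 or 4, KO_ASO replicate 1, 2 or 3 or WT_ASO replicate 1 or 4 (0.0504 to 0.166). In the compared groups alone 14 members were called higher and 0 lower.

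For the oligonucleotide in knockouts, Hexa and Gusb were called in each of the 22 alternative fits. The count of 6 was 2 without KO_ASO replicate 1, KO_ASO replicate 3 or KO_PBS replicate 1, and 3 without KO_PBS replicate 4. Calls over all genes, 544 as reported, were 212, 263, 208 and 322 in these fits. Atp6ap2 was lost without KO_ASO replicate 1, KO_ASO replicate 3 or KO_PBS replicate 1 (0.0532 to 0.0658), and Ctsl without any KO_ASO sample or KO_PBS replicate 1 or 4 (0.0513 to 0.0895). Ctsz was lost without KO_ASO replicate 1, 2 or 3, KO_PBS replicate 1 or 4, any WT_PBS sample or WT_ASO replicate 1 (0.0501 to 0.138). Galns was lost without any 1 of 13 samples, all except KO_ASO replicate 4, WT_ASO replicate 4 and WT_PBS replicate 1 (0.0517 to 0.159). The interaction of Hexa held in each alternative run, and that of Ctsl was lost without any 1 of 13 samples, all except KO_PBS replicate 2, WT_ASO replicate 2 and WT_ASO replicate 4 (0.0507 to 0.104), so the interaction count was then 1.

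Levels and changes of the members were then set side by side. The level in WT_ASO was used for this, since those samples enter neither side of the genotype comparison. The median was 4.43 RPKM for the 14 members that rose, 16.6 RPKM for the 5 that fell and 8.53 RPKM for the 17 that were not called. The order of the medians was the same among all genes tested: 1.16 RPKM for those that rose, 7.88 RPKM for those that fell and 1.85 RPKM for the rest. Across the 36 members, which share the same libraries and are not replicates, Spearman's rho between WT_ASO level and genotype log2FC was -0.469, against -0.241 across the 14960 genes. In the plot of level and change, the 3 members above 100 RPKM were Psap, which fell, and Lamp1 and Ctsd, which were not called.

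**Figure D3:**
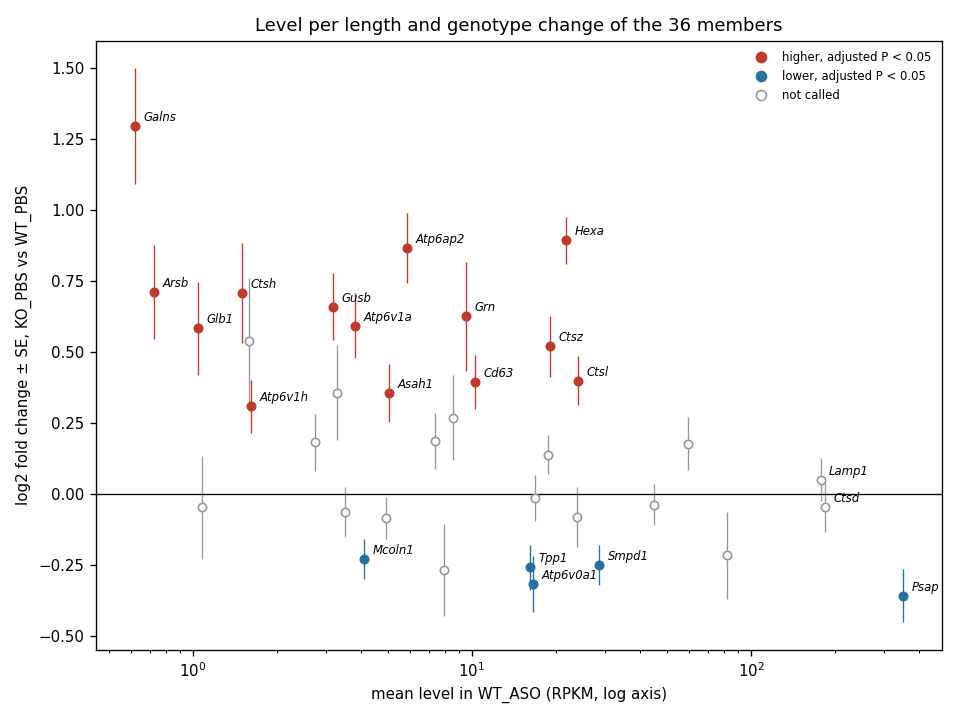
Mean level in WT_ASO (x axis, RPKM, log scale, n = 4) and log2FC of KO_PBS vs WT_PBS with its SE (y axis) for each of the 36 members, coloured by call. The members that rose have a median level of 4.43 RPKM, and those that fell 16.6 RPKM.

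The core motif was compared with the calls as a description. Of the 10 members that carry CACGTG in the window, 3 were called higher in KO_PBS (Ctsl, Glb1 and Atp6v1a), 1 lower (Mcoln1) and 6 were not called. Of the 20 members with a window and no match, 7 were called higher, 4 lower and 9 were not called. The regulators of lysosome production were read from a list of 18 genes with TFEB-family factors and the mTOR, Rag GTPase and Ragulator genes that control them, of which 17 were tested and Tfec was filtered out. With edgeR 0 of 17 were called in KO_PBS vs WT_PBS, against 12.6% of all genes, and 1 had an unadjusted P under 0.05, against 27.3%. In KO_ASO vs KO_PBS the counts were 0, against 3.64%, and 1, against 17.7%. DESeq2 called 0 in both, against 16.9% and 7.07% of all genes. Transcripts of Tfeb had a log2FC of 0.00 (SE 0.16), of Tfe3 0.11 (SE 0.10) and of Mitf -0.08 (SE 0.11) for the genotype. The activity of these factors is set largely by phosphorylation, which RNA does not show.

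A list of 52 other lysosomal genes, none of them a member, was read beside the members. It too was chosen with earlier results of these data known. For the genotype 11 of 52 were called (21.2%, against 12.6% of all genes), 8 higher, against 7.43%, and 3 lower, against 5.12%, with a median log2FC of 0.05. Atp6v0d2, a pump subunit that is typical of osteoclasts and macrophages, had 1 to 5 counts per library in WT_PBS and 52 to 139 in KO_PBS (log2FC 4.78, SE 0.59, adjusted P = 8.27e-05, from low counts). Dnase2a, the acid DNase, rose (0.89, SE 0.15, adjusted P = 0.00127), while Laptm4b (-0.69, SE 0.16, adjusted P = 0.0109) and Mfsd8 (-0.35, SE 0.08, adjusted P = 0.0121) were among the 3 that fell. With the oligonucleotide in knockouts 6 of 52 fell and 0 rose with edgeR (at an unadjusted P under 0.05, 11 and 2, and with DESeq2, 7 and 1), against 2.83% of all genes called lower with edgeR. Atp6v0d2 fell back to 0 to 4 counts per library (-5.43, SE 0.64, adjusted P = 0.000295), and Dnase2a fell too (-0.77, SE 0.15, adjusted P = 0.0097). Dnase2a was also the 1 gene of this list with a called interaction with edgeR, where DESeq2 called 4.

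Markers of cell types were read beside the members, and their changes differed between the lists. Of 17 macrophage markers 15 rose in KO_PBS (median log2FC 1.68), and 8 fell with the oligonucleotide in knockouts (median -1.58). With edgeR 7.43% of all genes were called higher and 5.12% lower for the genotype. With the oligonucleotide in knockouts the shares were 0.802% higher and 2.83% lower. DESeq2 called 16 higher and 13 lower in these comparisons, and at an unadjusted P under 0.05 all 17 were higher and then all 17 lower. Their summed level was 55.2 to 88.3 CPM in WT_PBS, 57.0 to 124 CPM in WT_ASO, 139 to 434 CPM in KO_PBS and 62.0 to 92.8 CPM in KO_ASO, and none of the 17 was at 0 in any KO_PBS library. Cd68, a lysosomal membrane protein of macrophages, changed by 3.41 in log2FC for the genotype (SE 0.31, adjusted P = 7.49e-06) and by -2.63 with the oligonucleotide in knockouts (SE 0.29, adjusted P = 0.000228). Cd163, a scavenger receptor, changed by 1.51 (SE 0.29, adjusted P = 0.00355) and -1.58 (SE 0.30, adjusted P = 0.0084). In bulk tissue more cells of a type and more RNA per cell cannot be told apart, and the part of macrophages in the members' changes was not tested. KO_PBS replicate 4 had the highest sum at 434 CPM, replicate 1 had 236, and replicates 2 and 3 had 142 and 139 CPM. Replicate 4 was also the highest KO_PBS sample for 29 of the 36 members, while Gusb, Arsb, Galns, Asah1 and Ppt1 were highest in replicate 1, Neu1 in replicate 2 and Smpd1 in replicate 3. Of 8 fibroblast markers 4 rose, Pi16 (1.24, SE 0.28, adjusted P = 0.0102) and Pdgfra (0.95, SE 0.26, adjusted P = 0.0272) with the smallest P values, and 1 (Dcn) fell with the oligonucleotide in knockouts (DESeq2 called 5 higher and 4 lower, and at an unadjusted P under 0.05 there were 5 and 6). All 8 had a log2FC below 0 with the oligonucleotide in knockouts (median -0.74). Their summed level ran from 1066 to 1400 CPM in WT_PBS, 474 to 2004 CPM in WT_ASO, 1360 to 2365 CPM in KO_PBS and 556 to 1865 CPM in KO_ASO.

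Among 10 fibre markers Des, desmin, rose (0.75, SE 0.10, adjusted P = 0.000118) and Tnnt3 (-0.40, SE 0.10, adjusted P = 0.0153) and Pvalb (-0.73, SE 0.21, adjusted P = 0.0327) fell, and the summed level was 159358 to 191831 CPM in WT_PBS and 140787 to 144944 CPM in KO_PBS. DESeq2 called 1 higher and 4 lower for the genotype, and at an unadjusted P under 0.05 there were 1 and 5. With the oligonucleotide in knockouts Des fell (-0.60, SE 0.10, adjusted P = 0.00303) and 0 of the 10 rose with edgeR (at an unadjusted P under 0.05, 2 fell and 2 rose, and with DESeq2, 2 and 1), with a summed level of 144481 to 168519 CPM in KO_ASO. Both satellite cell markers fell, Pax7 by 1.39 (SE 0.22, adjusted P = 0.000654) and Myf5 by 1.30 (SE 0.37, adjusted P = 0.0300) on the log2 scale, from summed levels of 4.77 to 6.44 CPM to 1.76 to 2.93 CPM. Neither was called with the oligonucleotide in knockouts (Pax7 0.57, SE 0.22, adjusted P = 0.172, and Myf5 0.44, SE 0.38, adjusted P = 0.629), where they summed to 2.72 to 4.08 CPM. For the genotype 0 of 6 endothelial, 0 of 3 adipocyte and 0 of 3 Schwann cell markers were called with edgeR or DESeq2, with 1, 0 and 0 at an unadjusted P under 0.05. Adipocyte markers summed to 66.9 CPM in KO_PBS replicate 4 against 1.65 to 18.0 CPM in the other KO_PBS samples. Of 4 neutrophil markers 1 could be tested and was not called with edgeR, though DESeq2 called it higher. Ly6g had 0 counts in all libraries of WT_PBS, KO_PBS and KO_ASO, and the 4 summed to 5.60 CPM in KO_PBS replicate 4 and at most 2.09 CPM in any other sample. The part of these cell types in the members' changes was not tested either.

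**Figure D4:**
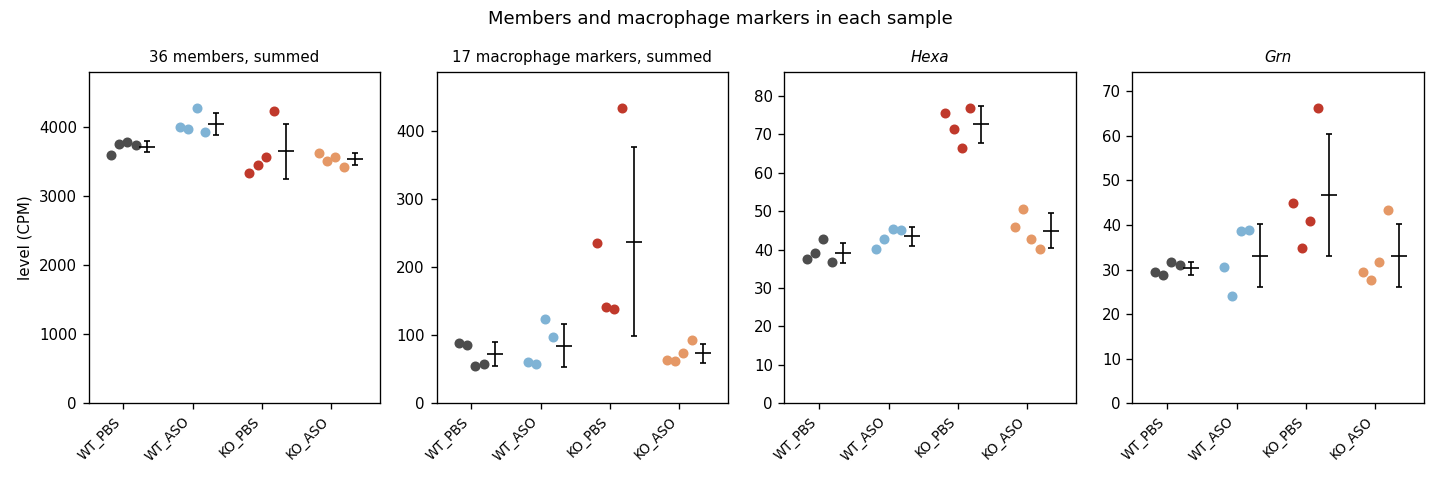
Level in CPM (y axes, from 0) in each sample, by group (x axes), of the 36 members summed, of 17 macrophage markers summed, of Hexa and of Grn, with replicates 1 to 4 from left to right and the mean ± SD (n = 4) in black. The macrophage sum reaches 434 CPM in KO_PBS replicate 4, where Grn is 66.3 CPM and Hexa 76.9 CPM.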

How the data were processed

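RNA from the tibialis anterior of 16 mice was sequenced, with 4 mice in each of 4 groups taken from the labels. Per the labels, libraries were made with the TruSeq Stranded mRNA kit. The deposited table holds the authors' raw counts, not normalized, with Ensembl genes as rows and samples as columns. According to the submitters' processing notes, HTSeq 0.6.1p1, STAR 2.5.3a, Bowtie2 2.2.8 and cutadapt 1.10 were used with GRCm38 (mm10), and their order is not stated. Neither the Ensembl release nor whether counting was stranded is given in these sources. All 29730 identifiers matched GENCODE vM21, which gave symbols and the union exon lengths behind RPKM. Every gene had at least 1 count in some sample, so genes at 0 in all samples had been left out before.

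Counts as deposited were tested with edgeR 4.0.16 (R 4.3.3): filterByExpr by group, TMM scaling, and a robust quasi-likelihood fit of 1 mean per group to all 16 samples, which share 1 estimate of the spread (common biological coefficient of variation 18.7%). Benjamini-Hochberg adjustment ran over the 14960 genes tested, and genes were called at an adjusted P under 0.05. SE is the size of the log2FC divided by the square root of F. On simulated counts for KO_PBS vs WT_PBS over 14739 genes, the test recovered 28.4% of 1.5-fold, 64.2% of 2-fold and 92.4% of 4-fold changes, and 11 of 134 calls were false, so many changes of the size seen here would be missed. Alternatives were DESeq2 1.42.0, RLE scaling, library totals only, no filter, the compared groups alone, a replicate block and each sample left out.

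The members and lists were chosen with earlier results of these data known. Named are Bin1, Dnm2, all members (those called in any comparison by sample, at most the 14 with the smallest P for KO_PBS vs WT_PBS or KO_ASO vs KO_PBS) and, from the lists of other lysosomal genes, regulators and markers of macrophages, muscle fibres, fibroblasts, endothelial cells, neutrophils, adipocytes, Schwann cells and satellite cells, the 2 called genes with the smallest P in each direction of those comparisons. Tfeb, Tfe3, Mitf, Ly6g, Nelfcd and Tmem202 were named outside this rule, after their values were seen. Ctsa, Ctsb, Ctsz, Hexa, Idua, Npc1, Ppt1, Grn and Lamp1 have an opposite-strand neighbour across part of their length with 10 or more counts on average, and Glb1 overlaps Tmppe on its own strand.

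Each sample was taken as a separate mouse, and P values measure the spread between these samples. No libraries agreed within sampling noise (lowest mean chi-square per gene within a group 21.7). Same-numbered samples of WT_ASO and WT_PBS deviated together (correlations of their deviations from the group means 0.121 to 0.447), which was taken as a pairing by number. In the other comparisons at least 1 pair was at or under 0.1, and the numbers were not taken to pair the samples. Even so, 14 of the 16 samples correlated best with their own number. The main fit holds no term for the number in any comparison, and the replicate block is given as an alternative.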

Additional observations from a re-analysis of the deposited data

Results flagged for a closer look

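The oligonucleotide effect differed between genotypes for 2 members by the interaction test: Hexa (-0.85 on the log2 scale, edgeR adjusted P = 0.00355) and Ctsl (-0.60, adjusted P = 0.0405). No further explanation was tested.

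In 13 of 152 groups of 4 samples, for the 36 members and the targeted genes, 1 sample lay farther from the others than Dixon's 95% critical value of 0.829 allows; chance gives about 5% of groups. Gusb was low in WT_PBS replicate 2 (12.6 CPM, others 14.6 to 14.9) and WT_ASO replicate 2 (10.7 CPM, others 15.3 to 16.1) and high in KO_ASO replicate 4 (14.9 CPM, others 13.4 to 13.6). KO_PBS replicate 4 was high for Idua (17.7 CPM, others 14.6 to 14.7), Lipa (23.2 CPM, others 11.3 to 13.0) and Npc2 (51.4 CPM, others 37.3 to 39.1). WT_ASO replicate 3 was high for Smpd1 (103 CPM, others 92.5 to 93.9) and Psap (1066 CPM, others 918 to 939.7) and low for Atp6v1a (20.4 CPM, others 23.8 to 24.0). WT_PBS replicate 3 was high for Neu1 (21.3 CPM, others 17.6 to 18.2) and Atp6v1h (17.0 CPM, others 15.0 to 15.2). KO_PBS replicate 3 was high for Smpd1 (89.6 CPM, others 79.1 to 80.6), and KO_ASO replicate 2 for Atp6v1a (37.0 CPM, others 24.4 to 26.2). Without that last sample the drop of Atp6v1a with the oligonucleotide in knockouts was called (adjusted P = 0.0113).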

How the results depend on the processing

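No called member changed sign in any alternative fit. The count of members called for KO_PBS vs WT_PBS, 19 as reported, was 19 with DESeq2 and RLE scaling, 17 on library totals, 14 in the compared groups alone and 11 without a filter, and 10 to 19 with 1 sample left out. For KO_ASO vs KO_PBS, 6 as reported, it was 9 with DESeq2, 8 on library totals, 6 with RLE scaling, 5 without a filter and 2 in the compared groups alone, and 2 to 7 with 1 sample left out. For WT_ASO vs WT_PBS and KO_ASO vs WT_PBS it was 0 in every fit run. For KO_ASO vs WT_ASO it was 0 except with DESeq2, which called 3. For the interaction, 2 as reported, it was 4 with DESeq2, 2 on library totals and with RLE scaling, 1 without a filter and 1 to 3 with 1 sample left out, and it could not be fitted in the compared groups alone. Calls over all genes moved too: for KO_PBS vs WT_PBS, 1878 as reported, they were 2522 with DESeq2, 1881 with RLE scaling, 2202 on library totals, 2064 in the compared groups alone and 1464 without a filter, and for KO_ASO vs KO_PBS, 544 as reported, 1056, 541, 760, 300 and 444 in the same order. The cause was not tested. With a replicate block the counts were 19 for KO_PBS vs WT_PBS, 11 for KO_ASO vs KO_PBS and 3 for the interaction, and 0 in the other comparisons (over all genes 2322, 752 and 126 in the first 3). The 11 were the 6 reported and Ctsb (adjusted P = 0.0495), Ctsh (0.0376), Glb1 (0.0448), Arsb (0.041) and Grn (0.0361), all lower in KO_ASO, and the interaction added Gusb. Correlations of the deviations of same-numbered samples ran from -0.088 to 0.473, 14 of 24 pairs were over 0.1, and 14 of 16 samples correlated best with their own number. Depth limits the scarcest members most: Galns had about 1 to 5 CPM in every sample.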
